A study of Cocos nucifera and Zingiber officinale with 11 samples.

Results

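The miRNAs described here are the names of the series whose family number is 1000 or more and whose family belongs to none of the better known groups of high-numbered plant miRNAs. They were picked by number alone, with a written list of exceptions that runs from MIR-1507 upward, and the list was drawn up with earlier results of these data known. The rule found 105 names of the 418 in the merged table, in 103 of its 189 families, and left 313 other miRNAs. The names do belong to high-numbered families, but the age of a family was not measured, so the term young was not tested, and 7 names came from moss or green alga. In the deposited table a name was listed 950 times over the libraries, and members took 163 of those listed values.

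The data came from exosome-like nanoparticles (EPDELNs), vesicles of plant juice that resemble the exosomes of animal cells. They were isolated by differential centrifugation from 11 edible plants bought at a market, namely soybean and pea, tomato and Hami melon, orange and grapefruit, pear, blueberry, kiwifruit, coconut and the rhizome of ginger. Each plant gave 1 small RNA library and no replicate, no treatment is named in the labels, and cultivar and age were not given in the sources used here. The library called pea here has labels that name both pea and lima bean. Juice was squeezed from pear, orange, grapefruit, kiwifruit and blueberry, whereas tomato, soybean, pea, Hami melon and ginger were ground in buffer, so method and plant cannot be told apart.

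Plant miRNAs are cut from hairpin precursors by a Dicer-like enzyme, are loaded on an Argonaute protein, and pair almost completely with the mRNAs they cut. Their numbers follow the order of discovery. Many low-numbered families are shared by most land plants, whereas many later ones were described in a single species or genus from deep sequencing. A name such as gma-MIR-4413b begins with the code of the species whose reference matched, here Glycine max (soybean), and not with the plant the RNA came from. For each miRNA the authors listed a level normalized to library size (RPM) and the most abundant read sequence, called the listed sequence below.

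The legume-named members of the legume libraries are shown first, because they held most of the listed sequences that equalled their reference. They are given as listed in soybean, with bases 2 to 8, the seed, in capitals, and all 5 had different seeds. MIR-4413b carried 1 base more than its reference at the 3′ end, and the other 4 were the whole reference.
gma-MIR-4413b: tAAGAGAAttgtaagtcactg
gso-MIR-3522a: tGAGACCAaatgagcagctga
gma-MIR-4412-5p: tGTTGCGGgtatctttgcctc
gma-MIR-5670b: cACATCATaccatatttgcttc
gma-MIR-1513a-5p: tGAGAGAAagccatgacttac

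The members with the widest occurrence looked different. In the next lines capitals mark the bases that were the same in the listed sequence and the reference, in the alignment with the fewest edits (a base changed, added or left out). MIR-1029 had 9 libraries, MIR-3932b-5p had 7 and MIR-4375 had 6, and their listed sequences were 14 to 17 nt against references of 20 to 24 nt.
ppt-MIR-1029, tomato: CTCTCTCAcCCcACCA
ppt-MIR-1029, grapefruit: TCTCTCTCAcCCcACCA
ppt-MIR-1029, reference: TCTCTCTCAaCCaACCAtac
ath-MIR-3932b-5p, pea: CTGCTCGAgCTGCT
ath-MIR-3932b-5p, reference: tttgaCgTGCTCGAtCTGCTc
gma-MIR-4375, tomato: CCACTGTGGTCGCca
gma-MIR-4375, reference: taCCACTaGTGGTCGCgcctggca

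A further set is shown because these members ranked first or second among the members of a library with a sequence that was not a stretch of its reference. Capitals again mark the bases shared with the reference.
ssl-MIR-1078, ginger: ATTGATTCAgATTGTGAa
ssl-MIR-1078, reference: cttgATTGATTCAATTGTGAt
zma-MIR-2275c-5p, grapefruit: gGGATAGAGGGACTTGAACCc
zma-MIR-2275c-5p, reference: aGGATtAGAGGGACTTGAACC
bdi-MIR-7767-5p, soybean: CCCCAAGaTGAGtGCTCTCC
bdi-MIR-7767-5p, reference: CCCCAAGcTGAGaGCTCTCCc
osa-MIR-5538, Hami melon: CTGAACTCAATCACTTGCTGCc
osa-MIR-5538, reference: aCTGAACTCAATCACTTGCTGC
mtr-MIR-5266, kiwifruit: GGGGGACgGaCTGGG
mtr-MIR-5266, reference: ctGGGGGACtGtCTGGGgcg

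All values of a library were whole multiples of 1 step, so the reads behind each RPM value were recovered, and the smallest listed value was 5 reads in each library except ginger, where it was 7. The read totals by which RPM was scaled, called depth below, were recovered in the same way and ran from 236959 in ginger to 6518871 in kiwifruit. They are not the sequenced reads. The counts of high-quality reads in the paper were higher in each library and much closer to each other. The same 5 reads therefore meant 14.4 RPM in pea and 0.767 RPM in kiwifruit, and a member that is not listed may lie below that limit. The intervals below are at the 95% level and cover counting error only, since PCR reads are not independent molecules.

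Soybean listed the most members, 41 of its 127 miRNAs, and tomato followed with 32 of 118. Pea listed 22 of 80, Hami melon 19 of 80 and blueberry 15 of 87. Pear had 9, kiwifruit 7, orange 6, grapefruit 5, coconut 4 and ginger 3. Members were thus 32.3% of the names in soybean and 5.41% in orange, although orange had 111 names and a higher scaling total. The order of the plants did not follow the scaling totals: kiwifruit had the highest total and 7 members, whereas pea had a total of 346601 and 22 members.

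Members made up a small part of the summed miRNA level, 2.98% ± 3.22 (SD, n = 11 libraries), with a median of 0.866%. The highest share was 8.59% in coconut (Wilson interval 7.81 to 9.44%, 390 of 4541 miRNA reads), ahead of 7.94% in tomato (7.80 to 8.09%). Pea had 4.87% (4.67 to 5.07%), soybean 4.67% (4.59 to 4.74%) and ginger 4.18% (3.89 to 4.50%). Hami melon, blueberry and pear lay between 0.698% and 0.866%. Kiwifruit, grapefruit and orange lay between 0.073% and 0.094%. The intervals of pea and soybean overlapped, and so did those of coconut and tomato. Overlap of separate intervals does not settle an order, and the order within each pair was not tested.

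In most libraries 1 member carried most of that level. MIR-1078 held 97.3% of the member level in ginger, and MIR-3932b-5p held 92.6% in coconut, 80.0% in pear and 57.5% in blueberry. MIR-1029 held 75.0% in tomato, MIR-5266 69.8% in kiwifruit and MIR-2275c-5p 60.3% in grapefruit. The first member was less dominant in Hami melon (MIR-5538, 47.6%), pea (MIR-3932b-5p, 38.4%), soybean (MIR-4413b, 32.9%) and orange (MIR-3623-5p, 30.7%). Among the 20 highest miRNAs of each library, 220 places in all, members took 13 (5.91%). These 13 places went to 9 names, and in 6 of the 13 the listed sequence was under 18 nt. Members with a listed sequence under 18 nt held 98.7% of the member reads in tomato, 100% in coconut and 98.3% in kiwifruit. Their share was 14.5% in soybean and 0.989% in ginger. The reads of a name may include sequences of other lengths than the listed one, so reads under 18 nt were not themselves counted.

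**Figure D1:**
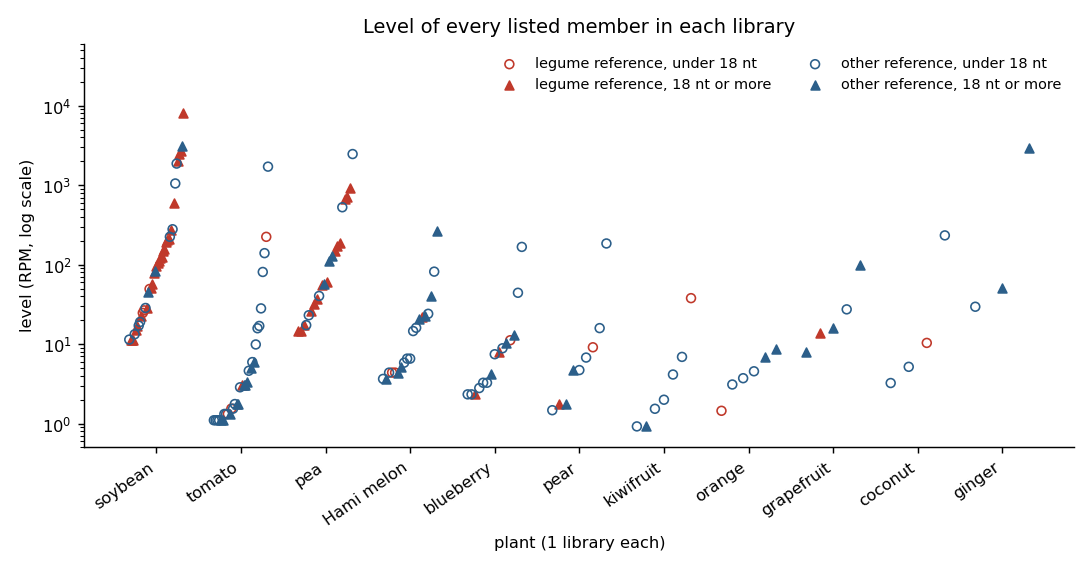
Level of each listed member, in RPM on a log scale, in the 11 libraries, with 1 point per listed value, red for a legume reference and blue for any other, open circles for listed sequences under 18 nt and filled triangles for 18 nt or more. Soybean and pea carry a ladder of red triangles up to 8182 RPM, and an open circle is the highest point in pea, tomato, blueberry, pear, kiwifruit and coconut.

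Most members were seen in a single plant. Of the 105, 74 (70.5%) were listed in 1 library, 19 in 2 and 12 (11.4%) in 3 or more, whereas of the 313 other miRNAs 155 (49.5%) were in 1 library and 87 (27.8%) in 3 or more. At the broad end, 1 member and 25 other miRNAs were in 8 or more libraries. The single-library members had a median of 11 reads, 37 of them had 10 reads or fewer, and 45 had a listed sequence under 18 nt. These values were not set beside those of the 155 other miRNAs of 1 library. The single-library members came from tomato (20), soybean (19), Hami melon (12), blueberry (7), kiwifruit (5), pear (4), ginger (3), grapefruit (2), orange (1) and pea (1), and coconut had none. Of the 19 members of 2 libraries, 11 were shared by pea and soybean and 3 by Hami melon and tomato.

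Within a library, a listed member was found in 2.0 ± 1.46 other libraries on average and another miRNA in 4.14 ± 0.94 (SD, n = 11). The difference was −2.15 ± 1.65, lower in 10 of 11 libraries, with orange as the exception (two-sided exact sign-flip permutation test, p = 0.00293, 0.00293 after Benjamini-Hochberg adjustment over 4 measures). Breadth is counted from the other libraries, so the differences of the 11 libraries were not independent, although the test treats them so. Names that recur across libraries affect the tests of the other measures in the same way. Members also had fewer reads. The mean of log10 reads was 1.39 ± 0.17 for members and 1.94 ± 0.17 for the other miRNAs, a difference of −0.546 ± 0.177 that was below 0 in 11 of 11 libraries (exact permutation p = 9.77e-04, the smallest that 11 libraries allow, adjusted p = 0.00130). Both differences depended on the list of exceptions. With every name numbered 1000 or more counted as a member, an alternative chosen after seeing the data, the difference was 0.11 other libraries (adjusted p = 0.787, exact permutation) and 0.048 in log10 reads (adjusted p = 0.787, exact permutation).

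The member with the widest occurrence was ppt-MIR-1029, a family described in the moss Physcomitrella patens. It had 1714 RPM in tomato (7794 reads, interval 1676 to 1753), 279 in soybean, 27.4 in grapefruit, 15.9 in pear, 6.57 in Hami melon, 4.55 in orange, 4.14 in kiwifruit, 3.26 in blueberry and 3.24 in coconut. It was not listed in ginger or pea. Tomato was thus 529.7-fold above coconut, and MIR-1029 was the fifth highest miRNA of tomato (rank 5, 5.95% of the level). The libraries listed 5 different sequences for it, all of them 14 to 17 nt long, and the alignment with the fewest edits took 2 in each. The 4 values from orange to coconut had overlapping intervals and rested on 5 to 27 reads.

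ath-MIR-3932b-5p, named from Arabidopsis thaliana, was listed in 7 libraries. It had 2470 RPM in pea (2307 to 2641), 1873 in soybean, 234 in coconut, 185 in pear, 167 in blueberry, 140 in tomato and 3.72 in orange. It ranked 3 in coconut, where it held 7.95% of the level, and 12 in pea. The sequence was the same 14 nt in pea, soybean, pear, blueberry and orange, was 15 nt in coconut, and was 17 nt in tomato. Pea and soybean stood well above coconut, pear, blueberry and tomato, and orange was the lowest.

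gma-MIR-4375 had a soybean reference but its highest level was not in a legume. It had 224 RPM in tomato (1019 reads), 49.4 in soybean, 11.2 in blueberry, 10.4 in coconut, 9.12 in pear and 1.45 in orange, and was not listed in pea. Its sequences were 14 or 15 nt of a 24 nt reference with 3 edits each. Blueberry, coconut and pear had overlapping intervals (7.17 to 16.6, 5.92 to 16.8 and 6.20 to 12.95 RPM).

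zma-MIR-2275c-5p was the broadest member with listed sequences of full miRNA length. In grasses the MIR-2275 family sets off the production of phased small RNAs in developing anthers. Whether the 5p-named sequences listed here do so was not tested. It had 99.1 RPM in grapefruit (82.3 to 118), 83.6 in soybean, 57.7 in pea, 5.94 in tomato and 3.65 in Hami melon. The listed sequence was 21 nt in all 5 libraries, with 3 edits to the reference in each, and 3 different sequences were listed. The intervals of grapefruit, soybean and pea overlapped (35.2 to 89.1 in pea). Overlap of separate intervals does not settle an order, and the order of these 3 was not tested.

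The other 8 members of 3 libraries fell into a legume set and a mixed set. gma-MIR-4413b had 8182 RPM in soybean, 932 in pea and 1.77 in pear, where it rested on 6 reads. gso-MIR-3522a, named from Glycine soja (wild soybean), had 2720 in soybean, 704 in pea and 7.92 in blueberry. gma-MIR-5038a had 274 in soybean, 170 in pea and 2.33 in blueberry, where it rested on 5 reads. In all 3 cases the sequence outside the legumes was letter for letter the one listed in soybean, and the level was 4633-fold, 343-fold and 117-fold lower than in soybean.

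The grass-named bdi-MIR-7767-5p and osa-MIR-5082 were also highest in soybean. MIR-7767-5p had 3104 RPM in soybean, 110 in pea and 20.4 in Hami melon, with 2 edits to its Brachypodium reference throughout. MIR-5082 had 1052 in soybean, 528 in pea and 4.62 in tomato, always as the same 14 nt of a 24 nt rice reference. vvi-MIR-3630-3p, named from grapevine, was higher in pea (127 RPM) than in soybean (45.6) and blueberry (4.2). vvi-MIR-3623-5p had 8.68 RPM in orange, 1.77 in pear and 1.76 in tomato, and equalled its grapevine reference in orange and tomato. osa-MIR-5078 had 15.8 in tomato, 5.18 in coconut and 3.26 in blueberry, with a 16 nt sequence 4 edits from the rice reference.

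**Figure D2:**
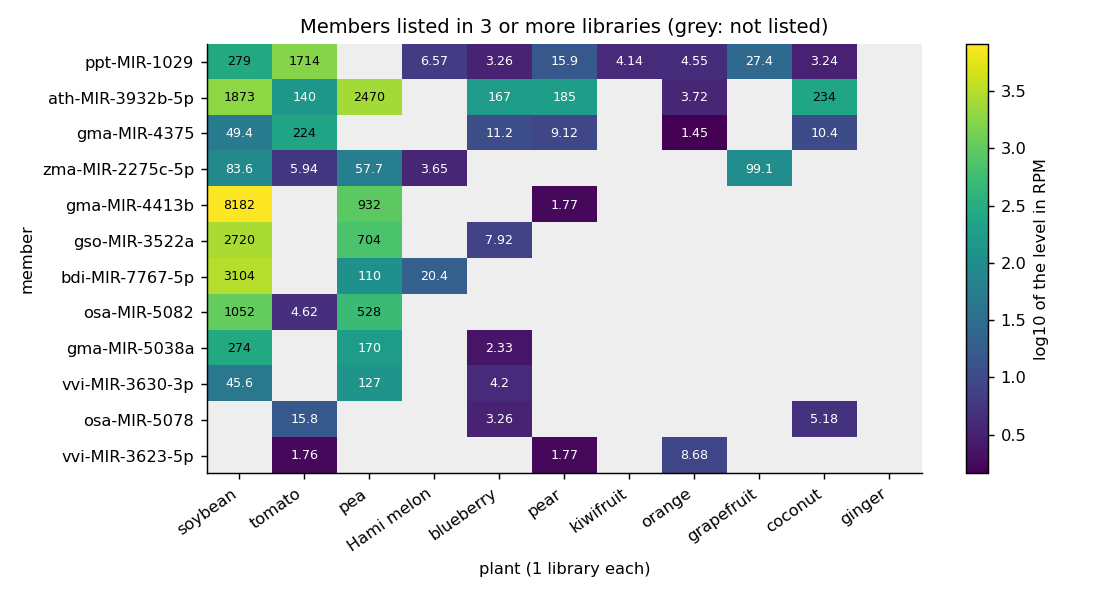
Level of the 12 members listed in 3 or more libraries, with 1 row per member, 1 column per plant, the RPM value printed in each cell and its log10 as colour, and grey for not listed. The highest level is in the soybean column for 5 of the 12 and in the tomato column for 3, and the ginger column is empty.

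Of the remaining leading members, ssl-MIR-1078, named from Salvia sclarea, was listed in ginger alone at 2908 RPM (689 reads, rank 5, 4.07% of the level). Placed without gaps it had 8 differences to its reference, and with 1 base added and 1 changed it had 2. Ginger also had osa-MIR-5813 at 50.6 RPM (12 reads) and gra-MIR-8771c at 29.5 RPM (7 reads). osa-MIR-5538 led Hami melon at 264 RPM (362 reads, rank 16) and had 3.08 RPM in tomato, in both cases with a single edit at the 3′ end. It was followed in Hami melon by ppt-MIR-1030d at 81.7 RPM and osa-MIR-5523 at 40.1 RPM. In blueberry, ppt-MIR-1219a had 44.3 RPM and bdi-MIR-7782-3p 13.1 RPM. MIR-1219 is known in moss for cutting mRNAs of auxin response factors, and the 14 nt listed here had 2 edits to that reference. gra-MIR-1446 was found in both citrus libraries and nowhere else, as the same 21 nt, at 16.1 RPM in grapefruit and 6.82 in orange. The kiwifruit leaders were mtr-MIR-5266 at 37.9 RPM (247 reads) and cre-MIR-1150.3, named from a green alga, at 6.90 RPM. The third member in pear by level, after MIR-3932b-5p and MIR-1029, was MIR-4375 at 9.12 RPM.

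Members had shorter listed sequences than the other miRNAs. Under 18 nt were 81 of 163 listed values (49.7%) of members and 99 of 787 (12.6%) of the others. The 2 shortest lengths, 14 and 15 nt, held 56 values of members and 26 of the others. The usual miRNA lengths of 20 to 22 nt held 42.9% of the member values and 79.7% of the others. By library, the share under 18 nt was 55.9% ± 26.2 for members and 13.8% ± 5.45 for the others, a difference of 42.1 percentage points ± 26.8 (SD, n = 11), higher in 11 of 11 libraries (two-sided exact sign-flip permutation test, p = 9.77e-04, adjusted p = 0.00130). The difference was smallest in pea, at 10.7 points, grapefruit, at 11.7, soybean, at 11.8, and ginger, at 12.6. It was largest in kiwifruit, at 80.3 points, and coconut, at 79.4, where all 4 members were short.

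**Figure D3:**
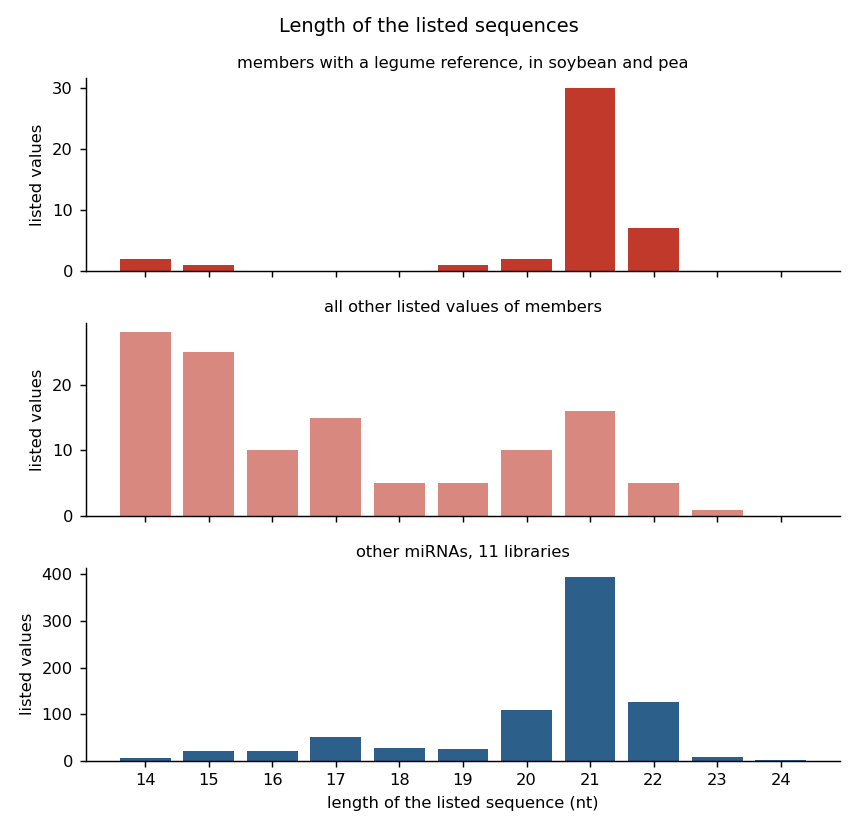
Number of listed values at each length in nt, as bars from 0 on a separate vertical scale in each panel, for members with a legume reference in soybean and pea, for all other member values, and for the other miRNAs. The first and the last panel peak at 21 nt, whereas the middle panel has its highest bar at 14 nt, with 28 values, and a lower one at 21 nt.

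Members also lay further from their references. A listed sequence was a whole stretch of its reference, with no mismatch and no overhanging base, in 34 of 163 values (20.9%) of members and in 489 of 787 (62.1%) of the others. It was identical to the full reference in 29 values of members and 369 of the others. By library the whole share was 11.96% ± 16.7 for members and 64.0% ± 6.72 for the others, a difference of −52.0 points ± 17.9 (SD, n = 11), lower in 11 of 11 libraries (exact permutation p = 9.77e-04, adjusted p = 0.00130). The difference was smaller under looser matching, −30.2 points when up to 2 mismatched or overhanging bases were allowed and −21.1 points when up to 2 edits with gaps were allowed. Pea (45.5%) and soybean (41.5%) had the highest whole shares of members, orange followed with 16.7% and blueberry with 13.3%, and coconut, ginger, grapefruit, kiwifruit and pear had 0 whole members. Length and match were not separate facts, since none of the 81 short values of members was whole, whereas 34 of the 82 values of 18 nt or more were (41.5%).

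The authors allowed 2 mismatches. Placed without gaps, 51 member values (31.3%) had more than 2 mismatched or overhanging bases, against 54 (6.86%) of the other miRNAs. When gaps were allowed, 32 member values (19.6%) had more than 2 edits, against 19 (2.41%) of the other miRNAs. How the matching program scored overhanging ends and gaps was not tested. The members with more than 2 edits included MIR-4375 and MIR-2275c-5p in every library that listed them. Reads were few in many of these values. The median was 19 reads for a member value and 62 for the others, and 58 member values (35.6%) had 10 reads or fewer, against 159 (20.2%). The median GC content was 52.9% in members and 52.6% in the others, but members varied among themselves, with 64.3% in those under 18 nt and 47.6% in those of 18 nt or more.

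**Figure D4:**
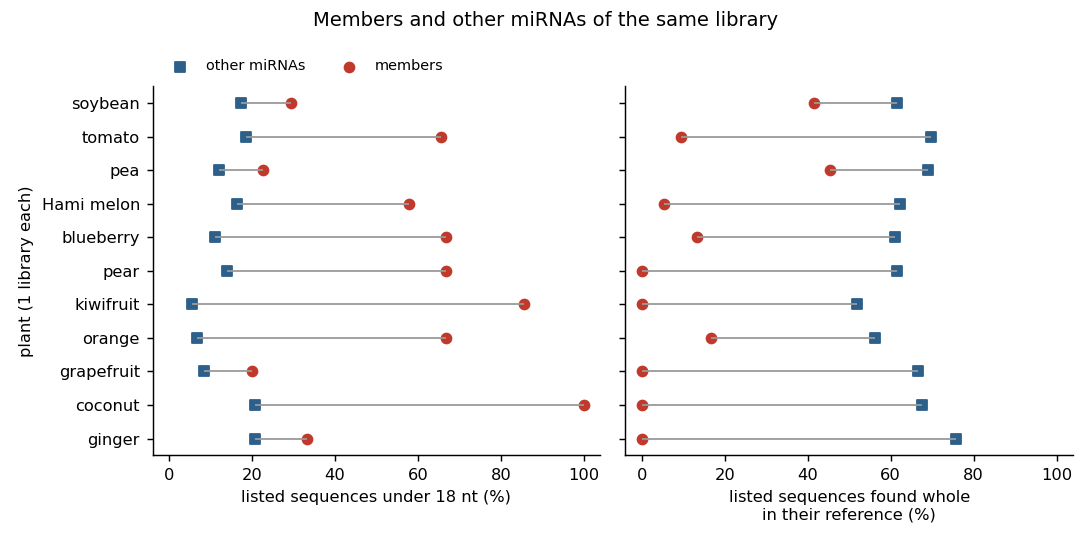
Share of listed sequences under 18 nt (left) and share found whole in their reference (right), in percent, for members (red circles) and the other miRNAs (blue squares) of the same library, joined by a grey line, for 11 libraries. On the left each red circle lies to the right of its blue square, and on the right each lies to the left, with the shortest lines in soybean and pea on the right.

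The reference species of a name divided the members. Legume references gave 36 names, grasses 34, crucifers 9, moss 5, green alga 2, a conifer 1 and other eudicots 18. Glycine max alone gave 25 names and rice 16. Of the 59 values with a legume reference 29 were whole (49.2%) and 13 were short. Of the 45 values with a grass reference 0 were whole and 28 were short. None of the 16 crucifer values and none of the 15 moss values was whole, and 15 of each were short. The other eudicot names had 5 whole values of 25. Over grass, crucifer, moss, alga and conifer together, 0 of 79 values, from 51 names, were whole. Many of these values were repeats of a name over libraries, and are not independent of each other.

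The legume names were then divided by library. In soybean and pea, 43 values of 29 legume names had a median length of 21 nt and a median of 51 reads, 27 were whole (62.8%) and 3 were short. In the other 9 libraries, 16 values of 11 legume names had a median length of 15 nt and a median of 15 reads, 2 were whole (12.5%) and 10 were short. Names of other references that were listed in soybean and pea had 0 whole values of 20, and 14 were short. The names and the depth of the libraries differed between these sets, so these shares are a description and were not tested. The other miRNAs with a legume reference had 67 whole values of 85 in soybean and pea (78.8%). Other miRNAs with any other reference had 26 whole values of 59 there (44.1%), and 18 were short.

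The names drawn from the plant itself can be set beside the rest. Soybean listed 23 members with a Glycine max name, of which 16 were whole and 1 was short, and 18 members with another name, of which 1 was whole and 11 were short. The remaining whole value was MIR-3522a of Glycine soja. Tomato listed 1 member with a tomato name, sly-MIR-1916, and Hami melon 1 with a melon name, cme-MIR-7129. Both were chosen for mention after their values were seen, and each had 2 edits to the reference of its own species, at 3.08 and 22.6 RPM.

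Whole matches outside soybean and pea were 7 in number and low, and they are named here after their values were seen. They were MIR-5038a and MIR-3522a in blueberry, MIR-3623-5p in orange (42 reads) and tomato (8 reads), vvi-MIR-3634-3p in tomato (6 reads), rgl-MIR-5141 in tomato (8 reads) and vvi-MIR-2950-5p in Hami melon (7 reads). The highest of them was MIR-3623-5p in orange at 8.68 RPM. Neither the 6 names from Medicago truncatula nor the 3 from Lotus japonicus, both legumes, had a whole value in any library.

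Soybean and pea, the legume libraries, were compared name by name. Of the 22 members in pea, 19 (86.4%) were also listed in soybean, which is 46.3% of the 41 members there. The overlap of members was near that of all miRNAs, of which 69 of the 80 in pea (86.2%) were also listed in soybean, 54.3% of the 127 there. The listed sequence was identical in 17 of the 19, and in 42 of the 50 other miRNAs listed in both. The 3 members in pea but not in soybean were ppt-MIR-1030i, tae-MIR-9661-5p and vvi-MIR-3632-5p. Of the 19, 14 had a legume reference.

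Of these 19 members, 17 had a higher RPM in soybean, and 7 (36.8%) were at least 4 times higher, against 34 of all 69 miRNAs listed in both (49.3%). The summed miRNA level was itself 4.03 times higher in soybean, and the median ratio was 3.85 for the members and 3.95 for all 69, so the ratio of the members lay near that of all miRNAs in both libraries. As shares of the summed level the median ratio of the members was 0.954, with 7 of 19 higher in soybean, and 1 of 19 was at least 4 times higher. The difference between the plants has no replicate check.

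Single members departed from that ratio. bdi-MIR-7767-5p was 28.3-fold higher in soybean (exact interval of the ratio 20.5 to 40.2), gma-MIR-5670b 13.3-fold (1997 and 150 RPM, 10.1 to 17.9) and gma-MIR-4413b 8.78-fold (7.84 to 9.86). gma-MIR-5373 was 14.1-fold higher (203 and 14.4 RPM), with 5 reads in pea, a wide interval of 5.85 to 44.3 and another sequence, shifted by 2 bases. gma-MIR-5376 had 120 and 17.3 RPM, a ratio of 6.91 whose interval of 3.01 to 19.5 included that of the summed levels. Close to the ratio of the summed levels were gso-MIR-3522a (3.86), gma-MIR-4412-5p (2479 and 664 RPM, 3.74), gma-MIR-5767 (148 and 37.5 RPM, 3.95), gma-MIR-9749 (194 and 60.6 RPM, 3.20) and gma-MIR-1513a-5p (602 and 188 RPM, 3.21). Further below the ratio of the summed levels, with intervals that left it out, were gma-MIR-5038a at 1.61 (1.18 to 2.21) and osa-MIR-5082 at 1.99 (1.68 to 2.37). So was zma-MIR-2275c-5p at 1.45 (0.836 to 2.59). ath-MIR-3932b-5p was lower in soybean, with a ratio of 0.758 (0.691 to 0.832), and so was vvi-MIR-3630-3p, at 0.359 (0.209 to 0.604). gma-MIR-5043 equalled its reference at 112 RPM in soybean and was not listed in pea, where the smallest listed value was 14.4 RPM.

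**Figure D5:**
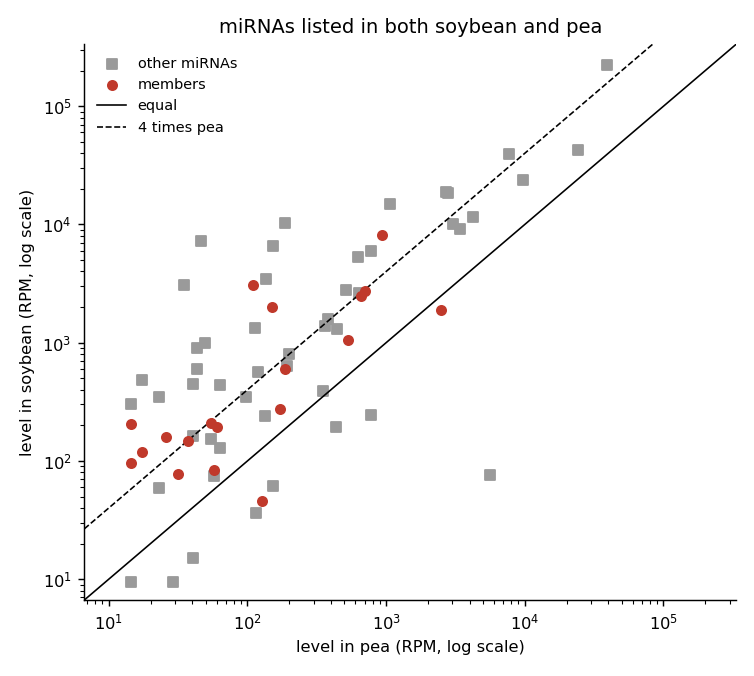
Level in soybean against level in pea, both in RPM on log scales, for the 69 miRNAs listed in both libraries, with members as red circles, other miRNAs as grey squares, a solid line at equality and a dashed line at 4 times pea. The 19 red circles run along the dashed line among the grey squares, and 2 of them lie below the solid line.

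Some members shared long stretches with a miRNA of another number, listed in the same or another library. A stretch of 12 nt or more was found in 10 of the 163 values, over 7 names, and in 2 of them the whole listed sequence lay inside the other. These were found by searching the listed sequences of all libraries together, and the lines below show examples with the shared stretch in capitals. Each partner line repeats the library of its member, and whether that library listed the same partner sequence was not part of the search. mtr-MIR-5266 of kiwifruit lay inside a sequence listed for zma-MIR-398b-5p, and ppt-MIR-1030i of pea inside one listed for bdi-MIR-164a-3p. ahy-MIR-3508, a peanut name, as listed in soybean and in pea shared 16 of 21 bases in a row with a sequence of gma-MIR-4996. The other bases differed at a single place. How reads were divided between such pairs, where a library listed both names, was not tested, so their levels are uncertain.
mtr-MIR-5266, kiwifruit: GGGGGACGGACTGGG
zma-MIR-398b-5p, kiwifruit: GGGGGACGGACTGGGaa
ppt-MIR-1030i, pea: CCTGCATCTCCACC
bdi-MIR-164a-3p, pea: cCCTGCATCTCCACC
ahy-MIR-3508, soybean: tagagGCTCCCCATGTTCTCA
gma-MIR-4996, soybean: tagaaGCTCCCCATGTTCTCA

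Among the members themselves few seeds were shared. Longer stretches between members were not counted, because the search above kept only the best partner of each value. osa-MIR-1863a of tomato and bdi-MIR-7782-3p of blueberry, for example, held the same 13 nt of bdi-MIR-845. The 163 values held 124 different sequences with 119 different seeds, and 3 seeds belonged to 2 members each. These were MIR-9560a-3p with MIR-9560b-3p, MIR-1030d with MIR-1030i, and bdi-MIR-7782-3p with sbi-MIR-5387b. Of the 31 members in 2 or more libraries, 17 had the same listed sequence in each of their libraries.

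A last property concerned the 3′ end. Mature transfer RNAs end in CCA, and these letters also ended some listed sequences. They closed 19 of 163 member values (11.7%), 60 of 787 of the other miRNAs (7.62%) and 79 of all 950 (8.32%). The value of the other miRNAs was uneven: 40 of the 60 belonged to a list of fragment-like families, among them MIR-5054, MIR-5072 and MIR-6478, and without that list 20 of 699 (2.86%) ended in CCA. The families of that list were all outside the members, and no further fragment-like names were sought among the members. The 2.86% is therefore not a like-for-like background for the 11.7%. Among the members under 18 nt, 12 of 81 values ended in CCA (14.8%). Of the 19, 6 were MIR-1029, out of its 9 listed values, and 3 were MIR-4375, out of 6. In tomato 7 of the 32 members ended in CCA. In orange and tomato, though not in pear, vvi-MIR-3623-5p ended in CCA too. Its grapevine reference has the same ending, so the letters alone do not name a source. Whether any of these sequences came from another RNA was not tested.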

How the data were processed

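Small RNA of 14 nt or more was sequenced by the authors from EPDELNs of 11 plants, 1 library each. After filtering, the authors ran MIRPIPE against the mature plant sequences in miRBase 21.0 with up to 2 mismatches, and deposited levels as RPM with the most abundant sequence of each miRNA. A merged table and 11 single tables held the same 950 values and sequences. The deposited sequence columns hold letters, used as given.

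Members and lists were chosen with earlier results of these data known. The reads behind each RPM value were recovered from the step of each library (950 of 950 values whole within 0.01 of a read). Lengths, mismatches and overhang were counted on the listed sequence, placed without gaps along its listed reference, and edits with edlib 1.3.9. Within each library members were compared with the other miRNAs by 4 measures, tested over the 11 libraries by a two-sided exact permutation test of all 2048 sign patterns, with Benjamini-Hochberg adjustment. Exact Poisson intervals (95%) were given for RPM, exact binomial ones for ratios and Wilson ones for shares. Soybean and pea were compared at a 4-fold limit with no test. No count model was used, since no library has a replicate. The step recovery and the test were tested on simulated data. The members named are those of 3 or more libraries, the 3 highest of each library, and those equal to their whole reference at 100 RPM or more in a library. The alternatives were read and level limits, lengths, matching rules, other comparison sets and leaving out libraries. The tools were scipy 1.17.1, pandas 2.3.3 and numpy 2.4.6 under Python 3.11.15, with matplotlib 3.10.9 for plots. No genome was used here, so no listed sequence was placed on a genome or tested for a hairpin precursor.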

Additional observations from a re-analysis of the deposited data

How the results depend on the processing

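Without single libraries, the difference between members and other miRNAs ran from 38.3 to 45.3 points for the share under 18 nt, from −55.2 to −49.6 points for the share found whole, from −0.571 to −0.524 for mean log10 reads and from −2.39 to −1.76 other libraries for breadth. The 2 sequence measures kept their direction and an adjusted p of at most 0.0176 (exact permutation) under all 21 and 23 alternatives run. So did reads and breadth under 19 alternatives each, and the exception was the alternative with every name numbered 1000 or more counted as a member, where they turned to 0.0475 and 0.114, since the names on the exception list then joined the members. The difference in the whole share narrowed to −30.2 points with 2 mismatched or overhanging bases allowed and to −21.1 points with 2 edits with gaps. With every name numbered 1000 or more counted as a member it narrowed to −35.5 points. The difference in the share under 18 nt was then 35.5 points, so the exception list affected the size of both. The number of members fell from 105 to 69 at 10 reads or more, to 37 at 29.5 RPM or more (the highest of the smallest listed values) and to 51 at 18 nt or more, and ran from 85 to 105 without single libraries. At least 4-fold higher in soybean were 7 members, 1 by share of the summed level (14.5% of all miRNAs in both) and 14 at a limit of 2-fold (75.4% of all). No paired analysis was possible because each plant has 1 library, where pairing means replicates of different plants, whereas members and other miRNAs were compared within each library throughout. Depth limits the comparison of breadth, since 5 reads meant a different level in each library.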
